A study of Homo sapiens with 4 samples.

Results

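Protein-coding genes that share their start region with a divergent transcript were described here by the γH2AX peaks at their starts in HepG2 cells, an established line from a human liver cancer. A gene X was taken when RefSeq (GRCh38.p14, the coordinates of hg38) has a gene named X-DT whose nearer end lies within 2 kb of one end of X, and that end was taken as the start of X. The rule found 558 of the 19817 genes that code for protein on chromosomes 1 to 22 and X. γH2AX is the histone variant H2AX phosphorylated at serine 139, a mark that spreads around DNA double-strand breaks, and CUT&Tag maps it by tethering a transposase to the antibody on chromatin. The libraries came from mock-induced cells (titled HEPG2-DMSO) and from cells after lipid overload (titled HEPG2-PAOA), both profiled for γH2AX per the series' design text. Each was made from 100000 cells with 14 PCR cycles. Growth was in the same medium with fetal bovine serum and antibiotics in all groups, per the labels, which give no lipid dose or time. There was 1 library per condition, so no difference between conditions has a replicate check and none was tested. IgG samples of both conditions were not analysed here, and the values therefore stand without an antibody background. The peak lists hold no expression values, so the cell line was not checked against its marker genes.

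Most mammalian promoters fire in both directions. RNA polymerase II assembles at a nucleosome-poor region, often rich in CpG, and a second polymerase starts on the opposite strand and runs away from the gene. Most of these upstream RNAs are cut short and degraded, and those stable enough to be annotated as a noncoding gene carry the name of the coding gene with the suffix DT. Such promoters usually lack a TATA box and often carry GC boxes, bound by SP1 and its relatives, or CCAAT boxes, bound by NF-Y.

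In 479 of the 558 genes the near end of the divergent transcript lay outside the gene and in 79 inside it. The distance between that end and the gene start had a median of 183 bp (quartiles 107 and 348). The farthest accepted gene was AJUBA at 1773 bp, and the nearest rejected was KLHDC7B at 2076 bp. The strand of the promoter table was that given by the rule for 459 of 459 genes found there, and the divergent transcript ran on the opposite strand for 442 of 442. Another protein-coding gene had an end within 2 kb of the start for 24 of the 558 genes. The median gene spanned 41.2 kb and its divergent transcript 7.83 kb.

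Promoter sequences of 7 genes show what these starts look like. TMEM18 and PDCD6 had the most fragments over the summit among genes marked in both conditions with a promoter in the table, ZDHHC12 and CAMSAP1 among those marked in lipid overload only, and DHCR7 among those marked in mock only. HSPA5, for its CCAAT boxes, and RNASEH1, for the place of its summit, were chosen after their values were seen. Each is the 250 bases before the start, 5′ to 3′ on the strand of the gene, from RefSeq (GRCh38.p14), with the strand in brackets. Capitals mark exact matches on either strand to a GC box, a CCAAT box, an ETS motif or the other motifs spelled out below, and adjoining GC boxes can overlap.
TMEM18, chr2:677407-677656 (-): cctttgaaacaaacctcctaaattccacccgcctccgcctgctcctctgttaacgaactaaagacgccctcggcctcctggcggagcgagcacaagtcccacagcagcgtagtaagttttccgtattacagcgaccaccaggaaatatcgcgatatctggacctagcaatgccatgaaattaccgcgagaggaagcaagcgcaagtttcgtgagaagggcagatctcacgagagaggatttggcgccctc
PDCD6, chr5:271396-271645 (+): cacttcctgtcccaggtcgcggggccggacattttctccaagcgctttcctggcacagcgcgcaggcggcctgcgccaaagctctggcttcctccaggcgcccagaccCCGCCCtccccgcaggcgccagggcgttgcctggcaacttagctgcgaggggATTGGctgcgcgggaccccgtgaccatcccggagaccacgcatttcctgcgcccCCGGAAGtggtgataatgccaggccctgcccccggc
ZDHHC12, chr9:128724128-128724377 (-): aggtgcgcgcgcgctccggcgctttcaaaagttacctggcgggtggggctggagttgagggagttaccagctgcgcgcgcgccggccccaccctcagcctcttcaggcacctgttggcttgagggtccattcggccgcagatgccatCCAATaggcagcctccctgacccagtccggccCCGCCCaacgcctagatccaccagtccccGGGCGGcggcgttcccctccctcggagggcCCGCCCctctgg
CAMSAP1, chr9:135907547-135907796 (-): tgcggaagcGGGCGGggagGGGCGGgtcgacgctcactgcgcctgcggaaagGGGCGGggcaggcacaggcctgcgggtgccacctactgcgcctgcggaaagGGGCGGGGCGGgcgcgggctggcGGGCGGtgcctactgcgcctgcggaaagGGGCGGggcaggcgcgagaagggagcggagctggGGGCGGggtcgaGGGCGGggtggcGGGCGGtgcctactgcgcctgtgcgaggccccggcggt
DHCR7, chr11:71449044-71449293 (-): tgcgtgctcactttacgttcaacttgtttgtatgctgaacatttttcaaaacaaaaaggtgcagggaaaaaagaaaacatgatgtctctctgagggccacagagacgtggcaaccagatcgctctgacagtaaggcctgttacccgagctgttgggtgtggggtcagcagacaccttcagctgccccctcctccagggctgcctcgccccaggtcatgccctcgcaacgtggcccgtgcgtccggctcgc
HSPA5, chr9:125241344-125241593 (-): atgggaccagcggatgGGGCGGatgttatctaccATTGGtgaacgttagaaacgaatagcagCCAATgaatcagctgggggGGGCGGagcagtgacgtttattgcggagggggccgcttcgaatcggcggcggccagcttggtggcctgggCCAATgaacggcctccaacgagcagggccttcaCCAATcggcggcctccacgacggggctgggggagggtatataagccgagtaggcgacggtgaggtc
RNASEH1, chr2:3558334-3558583 (-): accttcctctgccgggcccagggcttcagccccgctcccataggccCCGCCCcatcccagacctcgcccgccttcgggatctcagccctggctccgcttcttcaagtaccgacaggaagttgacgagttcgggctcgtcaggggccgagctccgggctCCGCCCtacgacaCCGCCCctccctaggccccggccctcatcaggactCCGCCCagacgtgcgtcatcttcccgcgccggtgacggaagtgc
CAMSAP1 had 10 GC boxes in this stretch and RNASEH1 had 4. HSPA5 had 4 CCAAT boxes and 2 GC boxes. TMEM18 and DHCR7 had no match to any motif searched. G+C ranged from 53.6% in TMEM18 to 78.8% in CAMSAP1.

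A gene was called marked at the start when a peak summit lay within 1 kb of the start. In mock cells 113 of the 558 genes were marked (20.3%, 95% exact binomial interval 17.0 to 23.8), against 12.7% of 15911 protein-coding genes taken as background. After lipid overload 351 were marked (62.9%, 58.7 to 66.9), against 41.9% of the background. The background held the 558 genes and all others with a row in the RefSeq promoter table. Another 3906 protein-coding genes had no row and were left out, whereas 99 of the 558 without a row were kept. Both lists marked 108 genes (19.4%, background 11.6%), lipid overload alone 243 (43.5%, background 30.3%), mock alone 5 (0.896%, background 1.14%) and neither list 202 (36.2%). At least 1 list marked 356 (63.8%, background 43%). Of the 113 genes marked in mock, 108 were also marked after lipid overload (95.6%, 90.0 to 98.6). In other protein-coding genes the same share was 1735 of 1911 (90.8%, 89.4 to 92.05), and the intervals overlap. The count of 108 depends on the longer lipid-overload list: with lists of equal length 84 of the 113 were marked in both and 29 in mock only. These intervals, as all below, reflect counting error alone: PCR copies repeat a molecule, and genes are not replicates.

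The libraries differed in depth. By the local backgrounds, lipid overload had 2.62 times as many fragments as mock, and a deeper library lists more peaks. With the lipid-overload fragments reduced to the mock depth, 241 of the 558 genes would be expected to stay marked (43.2%), 2.14 times the mock number, of which 154 in lipid overload only. At that depth 87.4 genes would be marked in both lists and 25.6 in mock only. In the other 15353 genes the same ratio was 2.23. How much of the rise over mock belongs to the treatment and how much to the library cannot be told apart with 1 library each.

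**Figure D1:**
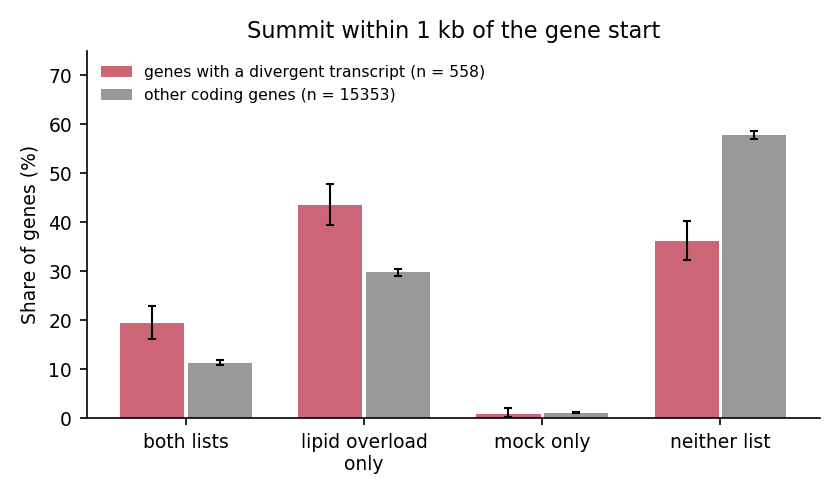
Share of genes, in percent, with a peak summit within 1 kb of the start in both lists, in lipid overload only, in mock only and in neither, for the 558 genes with a divergent transcript and 15353 other protein-coding genes. Bars start at 0 and error bars are 95% exact binomial intervals; the share marked in neither list is 36.2% and 57.8%.

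Genes with a divergent transcript were marked more often than other protein-coding genes in both libraries. Of the 15353 others, 1911 were marked in mock (12.4%, 11.93 to 12.98) and 6310 after lipid overload (41.1%, 40.3 to 41.9). The difference was 7.80 percentage points in mock and 21.8 after lipid overload. With lists of equal length the latter was 13.9 points, and among peaks with a −log10 q of at least 5 the differences were 3.34 and 16.1. Other genes on chromosome 8 were not used here. The strongest start peak of a marked gene had a median of 12 fragments over the summit after lipid overload in both gene sets. In mock the medians were 7 fragments in genes with a divergent transcript and 6 in the others. The share marked was thus higher while the marked starts themselves carried about as many fragments.

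The sets also differed in base composition, and weighting the others to the same CpG content made the difference in marking smaller. CpG content was measured in the 300-base promoter as observed over expected CpG, which is low where methylation has eroded CpG over evolution and near 1 in CpG islands. Of the 423 genes with a divergent transcript and a promoter in the table, 93.4% had a ratio of 0.6 or more, against 65.6% of 13450 others. Other genes weighted to the same CpG ratios, in steps of 0.1, were marked in 17.3% of cases in mock, against 21.3% (17.5 to 25.5) of the 423 genes. After lipid overload the weighted share was 57.5%, against 64.8% (60.01 to 69.3). Unweighted, the others with a promoter stood at 13.1% and 42.9%, so the weighted shares lay nearer those of genes with a divergent transcript in both libraries and remained below them. Weighting on gene length instead left the others at 12.7% and 42.0%. At ratios of 0.8 to 1.0, which held 218 of the genes, 71.1% (64.6 to 77.0) were marked after lipid overload, against 62.8% (61.4 to 64.3) of the others. At ratios of 1.0 or more the shares were 61.7% (50.3 to 72.3) and 64.7% (62.3 to 67.0), with overlapping intervals. The few genes with low ratios stood farther from the others after lipid overload, at 33.3% of 12 (9.92 to 65.1) against 7.44% below 0.4, and at 50% of 16 (24.7 to 75.3) against 27.0% from 0.4 to 0.6. In mock the shares were 20.8% (13.2 to 30.3) from 0.6 to 0.8, 22.5% (17.1 to 28.6) from 0.8 to 1.0 and 18.5% (10.8 to 28.7) above. The others stood at 16.3%, 19.4% and 16.6%, inside these intervals, so no mock difference was resolved within these steps. Expression of the genes was not analysed here, and its part in the difference was not tested.

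**Figure D2:**
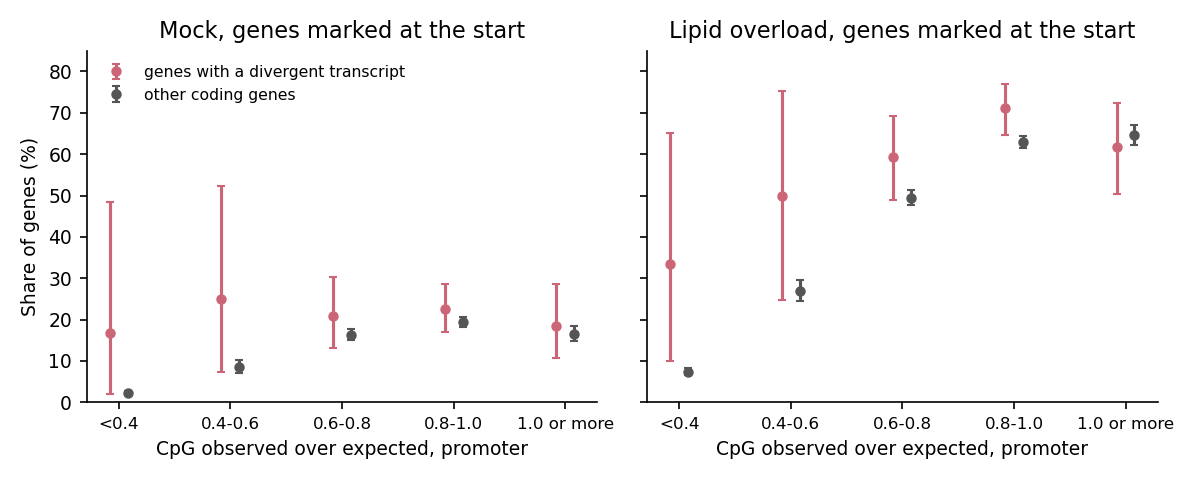
Share of genes marked at the start, in percent, by the observed over expected CpG of the 300-base promoter, in mock (left) and lipid overload (right). Points are 423 genes with a divergent transcript and 13450 other protein-coding genes, error bars are 95% exact binomial intervals, and at a ratio of 1.0 or more the lipid-overload shares are 61.7% and 64.7%.

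Peaks sat just before the start, on the side of the divergent transcript. Distances are signed: negative towards the divergent transcript, positive into the gene. In mock, 116 summits lay within 1 kb of a start, with a median distance of -76 bp (quartiles -247 and 72.3), and 73 of them were on the divergent side (62.9%, 53.5 to 71.7). After lipid overload there were 392 summits with a median of -71.5 bp (quartiles -172 and 85.8), and 252 were on the divergent side (64.3%, 59.3 to 69.0). Each summit belonged to 1 gene of the set. The fullest bin of 100 bp was the last before the start in both libraries, with 19 mock and 88 lipid-overload summits. Within 250 bp of the start lay 62.1% of mock summits and 68.4% of those after lipid overload.

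**Figure D3:**
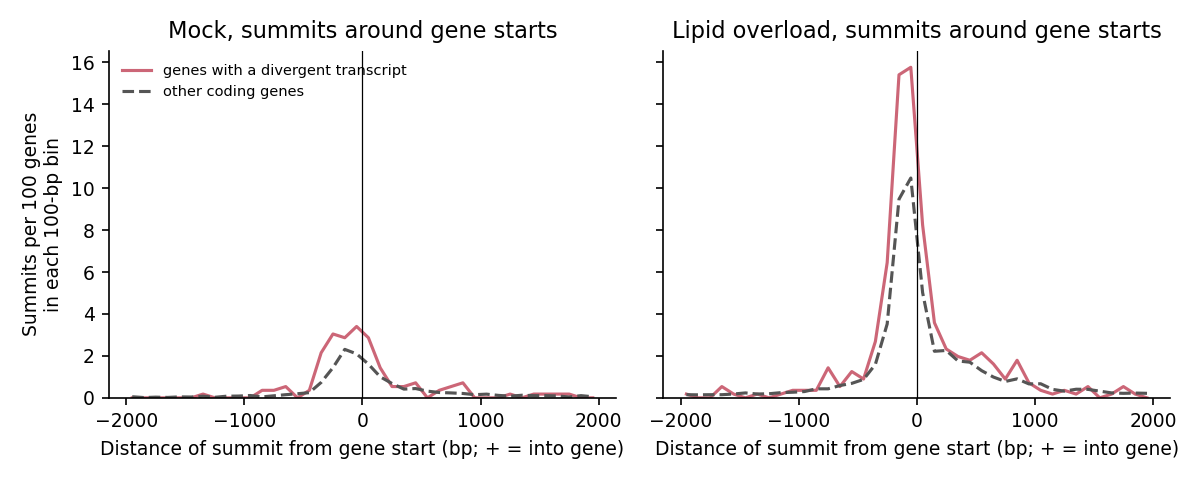
Summits per 100 genes in bins of 100 bp, by distance from the gene start (positive into the gene), for genes with a divergent transcript (solid) and other protein-coding genes (dashed), in mock (left) and lipid overload (right). All 4 curves peak within 200 bp before the start, and both solid curves peak higher than the dashed ones.

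Marking fell off quickly on either side. After lipid overload the density was 8.24 summits per 100 genes and 100 bp from -500 to 0, 3.58 from 0 to 500, 1.43 from 500 to 1000 and 0.251 from 1000 to 2000 bp into the gene. On the divergent side it was 0.789 from -1000 to -500 and 0.161 from -2000 to -1000. Other protein-coding genes had the same order, with 5.19 from -500 to 0 and 2.59 from 0 to 500. Their median distances were -51.5 bp in mock and -60 bp after lipid overload, and 58.3% (56.1 to 60.5) and 61.7% (60.6 to 62.9) of their summits lay before the start. A summit within 1 kb of more than 1 of these starts was counted once for each. The shares are thus over 1958 pairs of gene and summit from 1678 peaks in mock, and 7063 pairs from 6095 peaks after lipid overload. Their intervals, taken over pairs, overlap those of genes with a divergent transcript, so a difference in the side of the summit was not detectable at these counts.

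Where the starts of the pair lay farther apart, the summit lay farther upstream. For 472 genes the divergent transcript began before the gene, leaving a gap between the starts. In the 158 genes with gaps of 1 to 117 bp, the median lipid-overload summit was at -28 bp. In the 156 genes with gaps of 118 to 224 bp it was at -70 bp, and in the 158 genes with gaps of 225 to 1773 bp at -144 bp. The mock medians were 3, -112 and -146.5 bp, from 19, 36 and 40 summits. RNASEH1, whose enzyme removes the RNA strand of RNA-DNA hybrids, had its lipid-overload summit at -53 bp, where the annotated divergent transcript also begins. In 77 other genes the divergent transcript began inside the gene, so that the annotated ends overlap. There 63.5% (49.0 to 76.4) of 52 lipid-overload summits lay on the gene side, against 30.4% (25.6 to 35.7) of 335 summits in the genes with a gap. The medians were 198 and -81 bp. In mock, 12 of 18 summits of the overlapping pairs lay on the gene side, and 30 of 95 in the genes with a gap. H3-3A, which encodes a replication-independent histone H3, has 664 bp of overlap, and its summits lay at 688 bp in mock and 806 bp after lipid overload. The remaining 9 divergent transcripts reach mainly into the gene and were left out here.

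After lipid overload, summits between the annotated starts of a pair were more frequent than at the same offsets in other genes where the gap was 118 bp or more. Of 335 lipid-overload summits in genes with a gap, 159 lay between the starts (47.5%, 42.0 to 53.0), 74 on the side of the divergent transcript and 102 on the gene side. Other genes had 35.9% of their summits at the same offsets from the start. In mock, 38 of 95 lay between the starts (40%, 30.1 to 50.6), and the 30.3% of other genes at the same offsets lies inside this interval. The share rose with the gap, from 20.2% of 99 summits at the shortest gaps to 69.5% of 118 at the longest, where other genes had 16.5% and 53.9%. At the shortest gaps the interval, 12.8 to 29.5, holds the share of the other genes, and in mock the share was below theirs, at 10.5% of 19 summits against 12.3%. In overlapping pairs 23.1% of lipid-overload summits lay between the ends, against 24.6% in other genes. After lipid overload the median summit was 94 bp from the midpoint of the gap, 135 bp from the gene start and 156 bp from the start of the divergent transcript. For any summit the distance to the midpoint cannot exceed the mean of the distances to both starts. No centring on the gap is therefore read from these medians.

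Gap length also went with how many genes were marked. In mock, 11.4% (6.89 to 17.4) of genes with the shortest gaps were marked, 22.4% (16.2 to 29.8) with the middle ones and 24.7% (18.2 to 32.2) with the longest. The corresponding lipid-overload shares were 55.7% (47.6 to 63.6), 67.9% (60.01 to 75.2) and 67.1% (59.2 to 74.3). These lipid-overload intervals overlap. In mock the interval of the shortest gaps overlaps that of the middle ones but not that of the longest. Overlapping pairs stood at 23.4% (14.5 to 34.4) and 59.7% (47.9 to 70.8). Of other protein-coding genes 12.4% were marked in mock, which lies inside the interval of the shortest gaps and below the other mock intervals. After lipid overload 41.1% of the others were marked, which lies below every interval given here.

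**Figure D4:**
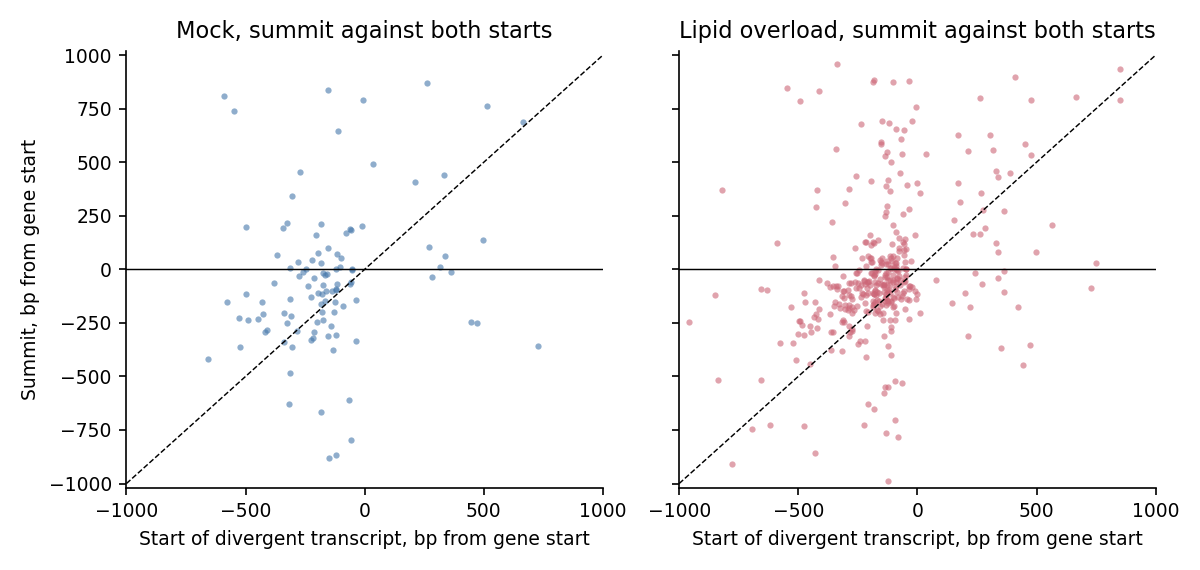
Distance of each start summit from the gene start against the position of the start of the divergent transcript, both in bp, in mock (left) and lipid overload (right). The solid line is the gene start and the dashed line the start of the divergent transcript; to the left of 0, summits gather between the lines. The 9 genes whose divergent transcript reaches mainly into the gene are left out, which leaves 113 mock and 387 lipid-overload summits. Of these, 7 and 15 are not drawn, because the divergent transcript of their gene starts over 1 kb away.

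Some starts had 2 peaks after lipid overload, and none had more. These were 41 genes, with a median spacing of 558 bp between the summits (quartiles 473 and 679). In 23 of them the summits lay on either side of the start, in 11 both lay on the divergent side and in 7 both on the gene side. Among these genes KPNB1, importin beta 1 of nuclear import, had the most fragments over its strongest summit, followed by ANKHD1, SP2, GSK3B and TMEM263. In mock 3 genes had 2 start peaks. After lipid overload the 392 start summits came from 351 marked genes, and the 7063 pairs of other protein-coding genes from 6310 marked genes. How many of those others had 2 start peaks is not given here, so nothing is read as particular to the 41 genes.

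Marking was concentrated at the starts. Beyond 1 kb of the start, lipid-overload summits had a density of 6.73 per Mb over the divergent transcripts (109 summits, 5.53 to 8.12) and 6.65 per Mb over the genes (375 summits, 5.99 to 7.36), against 351 per Mb within 1 kb of the starts. In mock the densities were 2.04 and 2.18 per Mb, against 104 at the starts. Among the 528 genes longer than 4 kb, 335 were marked at the start after lipid overload and 20 at the far end (3.79%, 2.33 to 5.79), of which 13 had both. In mock 109 were marked at the start, 6 at the far end and 0 at both. Other genes of that length were marked at the far end in 4.6% of cases after lipid overload and 1.24% in mock.

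In most genes marked in both lists the peaks touched. At 99 of the 108 genes (91.7%, 84.8 to 96.1) a mock and a lipid-overload start peak shared at least 1 bp, and at 60 they shared 50% of each. The strongest summits lay within 100 bp of each other at 70. Such counts are not given here for other genes, so nothing is read as particular to these 108. The strongest summits of the pair were a median of 66.5 bp apart (quartiles 23.8 and 185), and the lipid-overload summit was nearer the gene in 52 and nearer the divergent transcript in 52. Fragments over the strongest summit had a median of 7 in mock (3 to 25) and 17 after lipid overload (5 to 71). The ratio had a median of 2.55, close to the 2.62 by which the libraries differ in depth, and lay above 2.62 in 53 genes and below it in 55.

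The genes with most fragments in both lists act in varied processes. TMEM18, a nuclear membrane protein gene linked to body weight, had 23 fragments in mock (exact Poisson interval 14.6 to 34.5) and 71 after lipid overload (55.5 to 89.6), at chr2:676719-677300. Its summits lay inside the gene, at 491 and 540 bp. PDCD6, which encodes a calcium-binding adaptor, had 25 (16.2 to 36.9) and 67 (51.9 to 85.1) at chr5:271057-271777, with summits at -306 and -356 bp. Both lay farther from the gene than the near end of its divergent transcript, at -122 bp. ZBTB24, a zinc finger protein needed for DNA methylation at repeats, had 10 (4.80 to 18.4) and 61 (46.7 to 78.4), the largest ratio of the 108 genes at 6.1. Its summits lay 1 bp apart, at -209 and -210 bp, about midway to its divergent transcript, which begins at -425 bp. KPNB1 had 19 and 47 fragments, with summits at -237 and -240 bp, and its divergent transcript begins at -491 bp. ZNF584 had 11 and 46, MAN1B1, a mannosidase that trims misfolded glycoproteins, 16 and 44, and NUDT16, a nuclear hydrolase, 11 and 42. NFE2L1, a transcription factor that restores proteasome levels, had 10 and 42 fragments inside the gene, at 344 and 309 bp. ECI2, an isomerase of unsaturated fatty acid oxidation, had 5 (1.62 to 11.7) and 30 (20.2 to 42.8), chosen after its values were seen. Those are separate peaks, with summits at 197 bp in mock and -240 bp after lipid overload. At the other end stood ENTPD4 with 8 and 7 fragments and FZD4, a Wnt receptor gene, with 8 in each, also named after their values were seen. The strongest peaks of FZD4 did not overlap either, with summits at -331 and -725 bp. The lipid-overload count was higher than the mock count in 106 of the 108 genes.

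**Figure D5:**
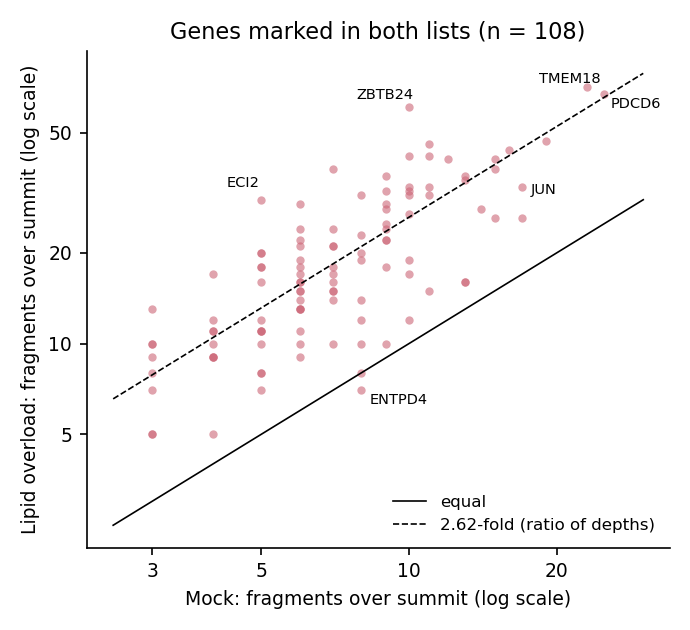
Fragments over the strongest start summit in mock (x axis) and lipid overload (y axis), both on log scales, for the 108 genes marked in both lists. The solid line is equality and the dashed line the 2.62-fold ratio of library depths; 53 genes lie above the dashed line and 55 below it.

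The 243 genes marked in lipid overload only had fewer fragments than the shared ones, with a median of 11 (4 to 50). At the mock depth, 169 of them would be expected to stay marked with a probability of 0.5 or more and 29 with 0.95 or more. ZDHHC12, which encodes a palmitoyltransferase, had 50 fragments (37.1 to 65.9) at chr9:128724030-128724413, with the summit at -78 bp. CAMSAP1, which binds microtubule minus ends, had 39 (27.7 to 53.3) at chr9:135907524-135907988, at -181 bp in its row of GC boxes. IBA57, an iron-sulfur cluster assembly factor of mitochondria, had 32 (21.9 to 45.2). ACAD9, an assembly factor of respiratory complex I that resembles the acyl-CoA dehydrogenases, and RNASEH1 had 30 each (20.2 to 42.8). The autophagy gene UVRAG and CEP72, a centrosomal protein gene, had 26 each (17.0 to 38.1). The peak of CEP72 stood on a high local background, with a fold of 3.50 and a probability of 0.4 of staying marked at the mock depth. Farther upstream CEP72 had a mock peak of 15 fragments at -1386 bp and a lipid-overload peak of 28 at -1526 bp. The summits of these named genes all lay before the start, between -52 and -189 bp, and inside or at the edge of the gap between the pair of starts.

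The 5 genes marked in mock only rested on few fragments, and the class held 29 genes with lists of equal length. DHCR7, the last enzyme of cholesterol synthesis, had 6 (2.20 to 13.1), with the summit at 760 bp, far from the promoter stretch printed above. TNFRSF10A, a death receptor gene, had 5 (1.62 to 11.7), WDR11 4, RPL34, of the large ribosomal subunit, 4, and the transcription factor gene E2F5 3. No lipid-overload peak overlapped the strongest mock start peak of any of the 5 genes. TNFRSF10A had another mock peak of 5 fragments, with the summit at 2 bp. The nearest lipid-overload summit to the start of DHCR7 was at -4090 bp, with 15 fragments.

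Promoters marked in both lists held a CCAAT box more often than the others. Of 87 such promoters 50 had one (57.5%, 46.4 to 68.0), against 71 of 187 marked in lipid overload only (37.97%, 31.0 to 45.3) and 47 of 146 marked in neither (32.2%, 24.7 to 40.4). All 35116 promoters of the table held one in 34.6% of cases. Seen from the motif, 71.6% (64.2 to 78.3) of 169 genes with a CCAAT box were marked after lipid overload and 60.2% (53.9 to 66.3) of 254 without. In mock the shares were 30.2% (23.4 to 37.7) and 15.4% (11.2 to 20.4). Marked genes with a CCAAT box had a median of 14 lipid-overload fragments and those without 10. The boxes stood at a median of -97 bp in genes marked in both lists, -106 bp in those marked in lipid overload only and -98 bp in those marked in neither. Among other protein-coding genes the shares with a CCAAT box were 44.9% (42.5 to 47.4) in both lists, 39.4% (37.9 to 40.9) in lipid overload only and 34.3% (33.2 to 35.4) in neither, the same order with smaller steps. Within promoters of a CpG ratio of 0.6 or more the order was the same, at 56.1%, 37.2% and 29.8% in genes with a divergent transcript. CCAAT was singled out among 10 motifs after their values were seen. A match is a string of letters and not a bound site, and no binding data were used.

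GC boxes (GGGCGG) followed the same order, with overlapping intervals between neighbouring classes. They stood in 82.8% (73.2 to 90.0) of promoters marked in both lists, 75.4% (68.6 to 81.4) of those in lipid overload only and 66.4% (58.2 to 74.0) of those in neither, against 44.95% of all promoters. Other protein-coding genes had a GC box in 77.965%, 75.1% and 44.2% by class, in this order, and in 58.1% over all classes. Their shares in both lists and in lipid overload only lie inside the intervals above. Their share in neither list lies below its interval. GC boxes are thus not read as particular to marked genes with a divergent transcript. The ETS motif CCGGAAG stood in 17.2%, 24.1% and 23.3% in this order, with overlapping intervals, against 10.3% of all promoters. Other protein-coding genes had this motif in 22.1%, 22.4% and 8.11% by class, and in 14.3% over all classes. A TATA box (TATAAA) stood in 20 of the 423 promoters (4.73%, 2.91 to 7.21), against 10.2% of other protein-coding promoters and 11.5% of all. The CGCG palindrome, an element of housekeeping promoters, stood in 9 (2.13%, 0.977 to 4.0), against 0.662% of other protein-coding promoters and 0.424% of all. Of these 9 genes 8 were marked after lipid overload (88.9%, 51.8 to 99.7), against 64.3% without it, and 1 in mock (11.1%), against 21.5%. The remaining strings searched, all on both strands of the 300 bases, were TGACGTCA (CRE, 4.49%, all promoters 1.85%), TGACTCA (AP-1, 0.946%, all 4.95%), CACGTG (E box, 8.04%, all 7.26%), AAGATGGC (YY1, 4.96%, all 2.89%) and the NRF1 palindrome (2.36%, all 1.24%). Other protein-coding promoters held these 5 strings in 2.65%, 3.71%, 9.01%, 4.08% and 1.81% of cases, in this order. No order between classes was read from these rarer strings.

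Genes left unmarked in both lists had a longer median length, with overlapping quartiles, and promoters as rich in G+C. Their median length was 51.1 kb (quartiles 15.4 and 139.8). It was 32.4 kb (15.8 and 84.1) in genes marked in both lists and 39.0 kb (15.2 and 105.8) in those marked in lipid overload only. Median G+C was 68.0%, 68.0% and 67.7% in this order. Other protein-coding genes differed in both respects. Their unmarked genes had the shortest median, with 21.9, 29.4 and 29.0 kb in this order, and a lower G+C, with 58.0%, 66.0% and 66.0%. Of the 202 unmarked genes, 81 (40.1%, 33.3 to 47.2) had a lipid-overload summit elsewhere in the gene or its divergent transcript and 121 had none. No such share is given here for marked genes or for other protein-coding genes, so it is not read as particular to the unmarked ones.

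The genes were also grouped by what they do, in 12 lists drawn by symbol, which left 329 of the 558 genes in no list. Shares below are set beside 62.9% of all 558 genes marked after lipid overload and 20.3% in mock. No test between lists was run, intervals of lists this small are wide, and nothing is read as particular to a list. Among marked genes the median fragment number after lipid overload was 12 over all 558 genes and between 9.5 and 18 in the lists. Other protein-coding genes of the same symbol patterns were marked after lipid overload in 25.3% of cases for lineage transcription factors, 48.5% for zinc fingers, 57.3% for chromatin and 68.5% for DNA repair and cell cycle. They stood at 63.8% for stress response, 45.6% for lipid and sterol, 67.2% for mitochondria and 62.7% for RNA processing and translation. For ubiquitin the share was 54.7%, for trafficking and autophagy 57.1%, for carriers and channels 31.2% and for kinases and phosphatases 51.3%. In mock these others ranged from 4.08% in lineage transcription factors to 25.5% in mitochondria, with 12.3% in lipid and sterol and 8.70% in carriers and channels.

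Developmental and lineage transcription factors had the lowest share of the 12 lists. Of 15 genes, 5 were marked after lipid overload (33.3%, 11.8 to 61.6) and 1 in mock. The marked ones included KLF2, a flow- and stress-induced factor, with 21 fragments at -172 bp, KLF11 with 8 in mock at -881 bp and 20 in a separate lipid-overload peak at 691 bp, and CEBPA, a liver and fat cell factor, with 18 at -165 bp. The homeobox genes BARX1 and DLX2, used in head and jaw development, had no start peak, nor had FOXF2, GSC, IRX2, ISL1, LHX1, LMX1B, FOXP1 and KLF9, which were named after their values were seen. Zinc finger genes, many of them repressors of repeats, were marked in 15 of 25 cases (60%, 38.7 to 78.9) and in 6 in mock. ZBTB24 and ZNF584 led, followed by ZNF8 with 9 and 28 fragments, and ZFP28 and ZNF132 were unmarked.

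Chromatin genes were marked in 8 of 14 cases after lipid overload (57.1%, 28.9 to 82.3) and in 5 in mock. CTCF, which folds chromatin into loops, had 9 fragments in mock (4.12 to 17.1) and 29 after lipid overload (19.4 to 41.6). H3-3A had 9 and 24, and H2AZ2, a histone H2A variant gene, 6 and 15. The reader ING2 and the demethylase gene KDM2B were unmarked. Genes of DNA repair and the cell cycle were marked in 10 of 11 cases (90.9%, 58.7 to 99.8), and E2F5, in mock only, was the remaining gene. CDC20, the activator of the anaphase-promoting complex, had 10 and 32 fragments at -216 and -246 bp, between its start and that of its divergent transcript at -308 bp. TP53RK had 19 and CDK13 14 fragments in lipid overload only. PAXIP1 and MCPH1, both of which act in the response to double-strand breaks, had 10 (4.80 to 18.4) and 5 (1.62 to 11.7) in lipid overload only, and were named after their values were seen.

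Stress response genes were marked in 13 of 15 cases after lipid overload (86.7%, 59.5 to 98.3) and in 5 in mock. JUN, an AP-1 subunit, had 17 (9.90 to 27.2) and 33 (22.7 to 46.3) fragments, with summits at -142 and -183 bp. HSPA5, the main chaperone of the endoplasmic reticulum, had 9 and 32, with summits at 7 and -31 bp, on the gene side of the CCAAT boxes in the sequence above. NFE2L1 belongs to this list as well. ATF6, a sensor of unfolded protein, and DNAJB5 were unmarked. Genes of lipid and sterol metabolism were marked in 9 of 11 cases (81.8%, 48.2 to 97.7) and in 5 in mock (45.5%, 16.7 to 76.6). INSIG1, which holds back sterol synthesis, had 13 (6.92 to 22.2) and 36 (25.2 to 49.8). ACAD9 and CHKB, a choline kinase gene with 23 fragments (14.6 to 34.5), were marked in lipid overload only. DGAT2, which makes triglyceride, had 13 (6.92 to 22.2) in lipid overload only, at 27 bp, and was named after its value was seen. KDSR, of sphingolipid synthesis, was unmarked.

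Genes for mitochondria were marked in 13 of 16 cases after lipid overload (81.3%, 54.4 to 96.0) and in 3 in mock. Behind ACAD9 stood MRPS30, a mitochondrial ribosome gene, with 5 and 18 fragments in separate peaks at 835 and 592 bp, and COQ7, of ubiquinone synthesis, with 18 in lipid overload only. IDH3B and MRPL20 were unmarked. Genes of RNA processing and translation were marked in 18 of 28 cases (64.3%, 44.1 to 81.4) and 7 in mock. EIF3J, a translation initiation factor, had 11 and 31 fragments, the tRNA synthetase gene TARS1 10 and 31, and the RNA decay kinase gene SMG1 25 in lipid overload only. CELF2 and MED28 were unmarked. Genes of ubiquitin and its relatives stood at 16 of 27 (59.3%, 38.8 to 77.6) and 3 in mock. RNF32 had 6 and 29 fragments, and FBXO3 and STUB1, both parts of ubiquitin ligases, 24 each in lipid overload only, while COPS8 and FBXO38 were unmarked.

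Trafficking and autophagy genes were marked in 17 of 23 cases after lipid overload (73.9%, 51.6 to 89.8) and 5 in mock. UVRAG led, then STX5, a syntaxin of the Golgi, with 9 and 25 fragments, and COPB2, a coat protein of Golgi vesicles, with 16 in lipid overload only. ARFGEF1 and GOLGA7B were unmarked. The list of carriers and channels, whose symbol pattern also took in ZDHHC12 and TMEM161B, stood at 11 of 17 (64.7%, 38.3 to 85.8) and at 7 in mock (41.2%, 18.4 to 67.1). SLC20A1, a phosphate importer, had 15 and 41 fragments, and ATP6V0D1, of the proton pump, 15 and 26. ATP10A and ATP8A1, flippases of membrane lipids, were unmarked. The list of kinases and phosphatases, whose pattern also took in JAKMIP1 and PKNOX2, stood at 20 of 30 (66.7%, 47.2 to 82.7) and 8 in mock. MAP3K2 had 13 and 35 fragments, GSK3B, a kinase of glycogen and Wnt signalling, 8 at -421 bp and 31 at -93 bp, and NEK2, a centrosome kinase, 6 and 24, while BMP2K and IKBKB were unmarked. Those are separate peaks of GSK3B, and its other lipid-overload peak, with 22 fragments at -515 bp, overlapped the mock peak.

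The strongest summit of some marked genes lay near the edge of the window. On the divergent side these were MICB at -989 bp with 12 fragments, PPM1L at -909 bp with 5 and TAF12 at -810 bp with 12. On the gene side they were EPM2A at 966 bp with 11 fragments, EMSY at 959 bp with 11 and DOCK9 at 958 bp with 8.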

How the data were processed

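γH2AX CUT&Tag peak lists of a mock-induced and a lipid overload-induced HepG2 library were used, 1 per condition, grouped by sample title. The IgG samples were not analysed here. The submitters' processing notes name build hg38 and the tools MACS2 2.1.2, BWA, deepTools and FastQC. Settings and any use of an IgG control were not given in the sources used here. Peaks numbered 8542 and 27296, in 1 list per sample. Each deposited peak has a score, a linear fold ratio over background, −log10 p, −log10 q and a summit, all the authors' own.

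Fragments over each summit were solved from the deposited fold and −log10 p under the formulas of MACS2, with 1 added to fragments and to background. A whole number fitted 100% of peaks within 0.001 in log10 p. The step was tested on simulated data. Library depths were compared by the lowest background divided by the fragment length that its steps give (137 bp in mock, 124 bp in lipid overload). This gave 2.62. The expectation at the mock depth is the exact binomial chance that a peak's fragments still reach the lowest p of the mock list.

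Genes came from RefSeq GRCh38.p14. Of the genes on these chromosomes, 679 that break the position order by over 1 Mb were set aside. Starts of other genes took their strand from the RefSeq promoter table, where 459 of the 558 genes were matched, and 423 had a transcript beginning within 100 bp of the start. Coordinates are 1-based.

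The members and lists were chosen with earlier results of these data known. Named genes followed a rule: by fragments, the 8 highest in both lists, in lipid overload only and in mock only, 3 marked and 2 unmarked genes per list, the 5 with most start peaks and the 3 farthest summits on either side. A gene that the rule names is not reported here. The CpG weighting, the midpoint values and same-offset shares, the CCAAT contrasts and the depth expectation were added after the data had been seen. Python 3.11.15, numpy 2.4.6, scipy 1.17.1 and pandas 2.3.3 were used.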

Additional observations from a re-analysis of the deposited data

How the results depend on the processing

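Of 105 values recomputed under other settings, 78 stayed within 1.5 times the count or within the interval of the share or median, 27 moved and none changed sign. With summits within 500 bp, 69.7% of lipid-overload summits lay on the divergent side. Peaks with a −log10 q of at least 5 left 38 genes marked in mock, 35 in both lists, all 35 with overlapping peaks, 3 in mock only and 304 in neither. They also gave 81.6% of mock and 71.7% of lipid-overload summits on the divergent side, medians of -145 and -94 bp, and 3.34 and 16.1 points more marked genes than among the other genes. A fold of at least 5 left 70 genes in mock, 68 in both lists, 65 with overlapping peaks and 2 in mock only. With lists of equal length 218 genes were marked after lipid overload, 134 in lipid overload only, 29 in mock only and 311 in neither, with 73.7% of lipid-overload summits on the divergent side, a median of -95.5 bp and a difference of 13.9 points from the other genes. At the mock depth, chosen after the data had been seen, 154 genes were expected in lipid overload only, 25.6 in mock only, and the difference was 15.5 points. Peaks overlapped by 50% of each at 60 genes. The count in mock only thus ran from 2 to 29 and rests on the depth and length of the lists. No paired analysis was possible because each group has 1 library. Leaving out a replicate was not possible for the same reason. Peaks of 3 to 5 fragments limit what the mock list can show, and the expectation at lower depth can only remove lipid-overload peaks.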
